A study of Mus musculus with 7 samples.

Results

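Genes that sense sterols or set the transcriptional answer to them were followed in optic nerves that lacked Fasn in the oligodendrocyte (OL) lineage. They are 10 of the 22880 genes of the deposited expression table: Scap, Insig1, Insig2, Srebf1, Srebf2, Rnf145, Nr1h2, Nr1h3, Abca1 and Mylip. The list was chosen on roles in sterol sensing, with earlier results from the mutant and control FPKM values of these same samples known, so those values are given as a description, with no p, and the calls of fits across all genes are only counted beside the share of all genes called. FPKM is the number of fragments scaled for transcript length and library size. Each of the 10 genes was matched by its symbol and was above the detection minimum in every sample.

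Optic nerves were taken at P14 from 4 control mice (FASN lox/lox) and from 3 mutant mice (olig2cre FASN lox/lox), all on a C57Bl/6 background. By this description both groups carried the floxed Fasn alleles, and the mutants alone carried Cre recombinase, which Olig2 regulatory elements drive in OLs and their progenitors. For its developmental studies the paper gives the controls as lox/lox or lox/wt. It describes the floxed line as of mixed strain origin and later backcrossed to C57BL/6. Cells outside that lineage are not the target of the deletion, so a value is a mean over recombined OL lineage cells, astrocytes, microglia, vessels and meninges. In such bulk tissue, fewer cells of a type cannot be told apart from less RNA per cell. The comparison asks how the RNA of the sterol-sensing machinery differs when OLs cannot make fatty acids themselves.

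Cells read their sterol content at the membrane of the endoplasmic reticulum (ER). When sterols are scarce, the escort protein Scap carries the precursors of the sterol regulatory element-binding proteins (SREBPs) to the Golgi, where proteases release the transcription factor, and when sterols are plentiful the Insig proteins hold Scap in the ER. Excess cholesterol is read through oxysterols by the liver X receptors (LXRs), which switch on genes of cholesterol export and, through Srebf1, of fatty acid synthesis. Myelin is rich in cholesterol, which in the nervous system is made locally, and the SREBPs drive much of that synthesis in OLs.

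The targeted gene was low in every mutant. Fasn, which encodes the synthase of palmitate, lay between 169.1 and 228.3 FPKM in the controls and between 48.98 and 69.3 FPKM in the mutants, a mean of 27.5% of control (log2 fold change -1.86, SE 0.138, adjusted p = 0.00312, limma-trend). The depth recovered from the table was 31311837 to 43457733 reads per control library and 27453998 to 35746599 per mutant library. Of 13866 genes tested, 363 were called at an adjusted p under 0.05, 175 of them higher and 188 lower in the mutants. That split depended on the scaling, with 103 higher and 267 lower from the normalized counts, 141 and 281 after quantile normalization, and 124 and 215 after median-of-ratios scaling. It leaned the other way with the replicate number as a block (891 higher and 270 lower) and with DESeq2 (848 and 755). The same held without mutant 1 (103 and 83) and without mutant 2 (563 and 344). Every other alternative called more genes lower than higher, such as no filter (33 and 62) and no variance trend (16 and 41). All 8 markers of OLs were detected in every sample.

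Promoter sequence was read first, because a pair of textbook LXR targets (Abca1 and Srebf1) and Rnf145 share a stretch of letters there. RefSeq windows of 300 bases on GRCm38.p6, from 250 bases before to the first 50 bases after an annotated start, existed for all 10 genes, as 18 windows. LXRs bind direct repeats spaced by 4 bases (DR4). A stretch of each of the 3 genes carried the letters GGTTA, then 5 bases of any kind, then GNTCA, shown in capitals. They are written 5′ to 3′ on the strand of the gene.
Rnf145: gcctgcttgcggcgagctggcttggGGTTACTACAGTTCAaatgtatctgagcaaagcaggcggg
Abca1: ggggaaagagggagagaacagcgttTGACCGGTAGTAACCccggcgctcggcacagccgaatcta
Srebf1: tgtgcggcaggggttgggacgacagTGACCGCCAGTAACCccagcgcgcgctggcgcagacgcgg

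The Rnf145 stretch lies at chr11:44520173-44520237 on the plus strand, in the most downstream of the gene's 3 windows, with the capitals at positions -91 to -77 from that start. The Abca1 stretch lies at chr4:53159923-53159987 on the minus strand, with the capitals at -67 to -53. The Srebf1 stretch lies at chr11:60210614-60210678 on the minus strand, again in the most downstream of 3 windows, with the capitals at -182 to -168. In Abca1 and Srebf1 the repeat is on the strand opposite to the gene, where it reads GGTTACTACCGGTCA and GGTTACTGGCGGTCA. Over the 15 bases, Rnf145 and Abca1 shared 13 letters, Abca1 and Srebf1 shared 13, and Rnf145 and Srebf1 shared 11. The motif fixes 9 of these letters, and they were chosen after the windows had been read, so the match of the 3 genes is a description. On either strand these letters were found in 41 of 32851 promoter windows of the same length, or 0.125%. The strict DR4 repeat, AGGTCA, 4 bases and AGGTCA again, was in no window of the 10 genes and in 0.0152% of all windows.

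Srebf2 carried the core letters of a sterol regulatory element (SRE), the site at which SREBPs bind. The stretch is shown because Srebf2 is known to be a target of its own product, and the capitals mark TCACCCCA at positions -162 to -155. It lies at chr15:82147082-82147139 on the plus strand.
Srebf2: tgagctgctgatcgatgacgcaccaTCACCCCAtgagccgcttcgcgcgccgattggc

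The SRE core was in 1.56% of all windows, read on both strands, and Srebf2 was the only one of the 10 genes with it in the windows searched. The E-box CACGTG was present in windows of Abca1, Insig1, Rnf145 and Scap and in 7.15% of all windows, and the pair of Scap windows overlap and hold the same site. The letters CCAAT were present in windows of Insig1, Insig2, Mylip, Srebf1 and Srebf2 and in 37.4% of all windows. No match of these kinds was found for Nr1h2 and Nr1h3, which says only that these letters are not in their windows.

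**Figure D1:**
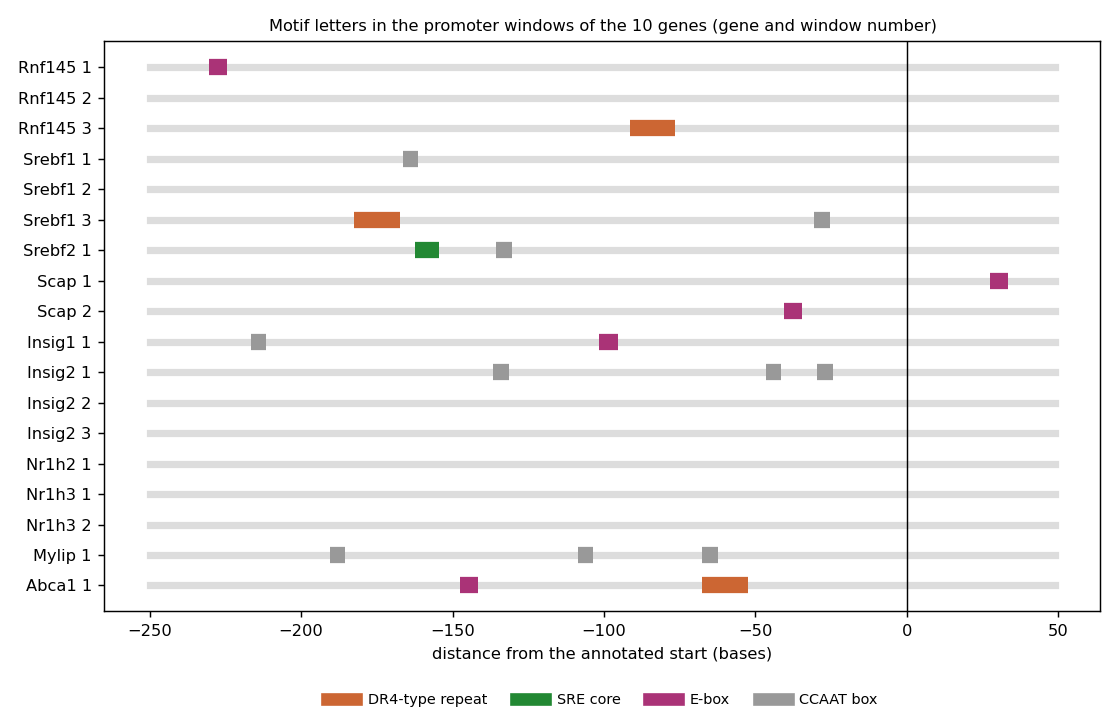
Position of the motif letters in each of the 18 promoter windows, with the distance from the annotated start in bases on the x axis and gene and window number on the y axis. Coloured blocks mark the DR4-type repeat, the SRE core, the E-box and the CCAAT letters on either strand, and the DR4-type repeat appears in 1 window each of Rnf145, Abca1 and Srebf1.

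Of the 10 genes, 5 had all 3 mutants above all 4 controls, namely Rnf145, Srebf1, Insig2, Mylip and Abca1. This arrangement was found in 12.9% of all tested genes. The other 5 had overlapping groups, and no gene had all mutants below all controls. Rnf145 alone was called by limma-trend across all genes, which called 2.62% of the genes it tested, and 6 of the 10 had an unadjusted p under 0.05, as had 24.4% of all tested genes. The genes were listed with this contrast known, and nothing is read from these counts. The median log2 fold change over the 10 genes was 0.34, beside 0.05 over all tested genes. With the replicate number as a block, which pairs 3 controls with 3 mutants, 5 of the 10 were called (Rnf145, Abca1, Insig2, Mylip and Srebf1) against 8.37% of all genes. DESeq2 on the recovered reads called the same 5, against 10.8% of all genes. The quasi-likelihood test of edgeR called Rnf145 alone, against 371 of 15123 genes.

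**Figure D2:**
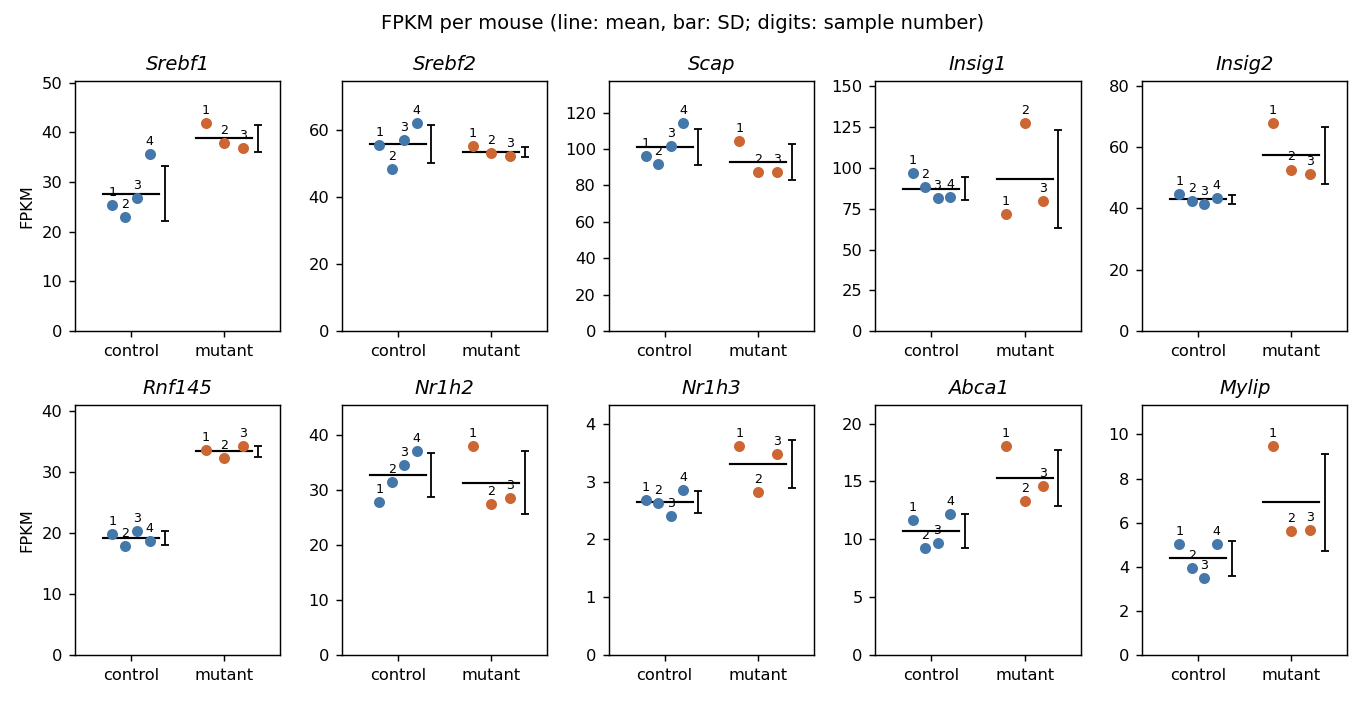
FPKM of each of the 10 genes in every mouse, with control and mutant on the x axis, a line for the mean, a bar for the SD and the sample number beside each point. The mutants lie above every control for Rnf145, Srebf1, Insig2, Mylip and Abca1 and overlap the controls for the other 5.

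Scap and the Insig proteins are the sensors that hold or release SREBPs. Scap (chr9:110333288-110384950) was at 96.38, 91.86, 101.8 and 114.4 FPKM in controls 1 to 4 and at 104.2, 87.46 and 87.09 FPKM in mutants 1 to 3. Mutants 2 and 3 lay below every control and mutant 1 within their range, so the groups overlapped. The difference on the log2 scale was -0.12 with an SE of 0.0935.

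Insig2 encodes the Insig protein whose RNA is not driven by SREBPs in the way that of Insig1 is. Insig2 (chr1:121304353-121332589) was at 44.56, 42.45, 41.4 and 43.36 FPKM in the controls and at 67.91, 52.67 and 51.21 FPKM in the mutants. The controls were close together, and every mutant lay at least 6.65 FPKM above the highest of them, with mutant 1 highest. The mean was 42.9 ± 1.34 FPKM (SD, n = 4) in controls and 57.3 ± 9.25 FPKM (SD, n = 3) in mutants, or 133% of control. The log2 fold change was 0.40 with an SE of 0.0963, and it was 0.27 without mutant 1.

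Insig1 is itself a textbook SREBP target and reports SREBP activity in many cells. Insig1 (chr5:28071363-28078662) was at 96.83, 88, 81.71 and 81.96 FPKM in the controls and at 71.84, 127.6 and 79.97 FPKM in the mutants. Mutant 2 lay above every control, while mutants 1 and 3 lay below every control. The mutant SD of 30.1 FPKM was larger than the control SD of 7.09 FPKM, and the log2 fold change of 0.05 (SE 0.173) ran from -0.20 to 0.22 when single samples were left out.

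The ratio of the FPKM values of Insig2 and Insig1 put both patterns together. It was 0.46, 0.482, 0.507 and 0.529 in the controls and 0.945, 0.413 and 0.64 in the mutants. Mutants 1 and 3 lay above the control range, and mutant 2 lay below it.

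The SREBP genes themselves differed from each other in pattern. Srebf1, which encodes the SREBP of fatty acid synthesis and is an LXR target (chr11:60199089-60220604), was at 25.36, 22.88, 26.8 and 35.72 FPKM in the controls and at 41.93, 37.77 and 36.79 FPKM in the mutants. All mutants lay above all controls, but control 4 came within 1.07 FPKM of the lowest mutant. The means were 27.7 ± 5.59 FPKM (SD, n = 4) and 38.8 ± 2.73 FPKM (SD, n = 3). On the log2 scale the difference was 0.50 with an SE of 0.135. Leaving out control 4 gave 0.63, and over all single-sample omissions the value ran from 0.41 to 0.63. Srebf1 overlaps Rai1 on the opposite strand, and the sources used here do not state whether strand was used in counting.

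Srebf2, which encodes the SREBP of cholesterol synthesis and uptake (chr15:82147266-82205376), was at 55.54, 48.54, 57.03 and 62.27 FPKM in the controls and at 55.18, 53.22 and 52.2 FPKM in the mutants. Every mutant lay inside the control range, and the log2 difference was -0.06 with an SE of 0.0828. The ratio of Srebf1 to Srebf2 in FPKM was 0.457, 0.471, 0.47 and 0.574 in the controls and 0.76, 0.71 and 0.705 in the mutants. The ratio was higher in every mutant than in every control, with means of 0.493 ± 0.0542 (SD, n = 4) and 0.725 ± 0.0305 (SD, n = 3).

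Rnf145 encodes a ubiquitin ligase of the ER membrane that has a sterol-sensing domain and is known as an LXR target and as a ligase that acts on Scap and on HMG-CoA reductase. Rnf145 (chr11:44518964-44565520) was at 19.89, 17.84, 20.4 and 18.76 FPKM in the controls and at 33.65, 32.36 and 34.23 FPKM in the mutants. Both groups were tight, and the lowest mutant lay 12 FPKM above the highest control. The means were 19.2 ± 1.15 FPKM (SD, n = 4) and 33.4 ± 0.957 FPKM (SD, n = 3), which is 1.74-fold, and 2286 to 4682 reads per sample stood behind them. The log2 fold change was 0.78 with an SE of 0.0666, and leaving out single samples gave 0.75 to 0.81.

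Among 11694 genes with a mean of at least 2 FPKM, the 5 whose profile over the 7 samples was most like that of Rnf145 were, by Pearson's r of log2 values, Osbpl6 (0.9969), Sar1a (0.9949), Siah1a (0.9916), Capn2 (0.9858) and Amot (0.9835). These correlations rest largely on the gap between the groups, which the 7 points share, and are given without a test. Osbpl6, a member of the oxysterol-binding protein family, was at 2.254 to 2.331 FPKM in controls and 2.735 to 2.815 FPKM in mutants. Sar1a, a small GTPase of vesicle budding from the ER, was at 57.35 to 60.87 FPKM in controls and 70.16 to 72.24 FPKM in mutants. The choice by likeness to Rnf145 fixed the separation of the groups in both genes.

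The LXR genes differed in level. Nr1h2, which encodes LXR-beta, the receptor found in most cell types (chr7:44549616-44553951), was at 27.77, 31.51, 34.53 and 37.17 FPKM in the controls and at 37.93, 27.45 and 28.62 FPKM in the mutants. Mutant 1 lay above the controls and mutant 2 just below them, so the groups overlapped, and the log2 difference was -0.07 with an SE of 0.131. Nr1h3, which encodes LXR-alpha, best known from liver and macrophages (chr2:91184061-91195151), was at 2.68, 2.627, 2.403 and 2.861 FPKM in the controls and at 3.612, 2.823 and 3.487 FPKM in the mutants. Mutant 2 fell 0.038 FPKM short of the highest control, which was the only overlap. The log2 fold change was 0.27 with an SE of 0.113, resting on 142 to 209 reads per sample.

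Abca1 and Mylip are classic LXR targets. Abca1, the pump that hands cholesterol to apolipoproteins (chr4:53030787-53159895), was at 11.66, 9.234, 9.713 and 12.21 FPKM in the controls and at 18.03, 13.3 and 14.58 FPKM in the mutants. All mutants lay above all controls, with mutant 1 highest and mutant 2 lying 1.09 FPKM above control 4. The means were 10.7 ± 1.45 FPKM (SD, n = 4) and 15.3 ± 2.45 FPKM (SD, n = 3), and the log2 fold change of 0.49 (SE 0.13) was 0.37 without mutant 1.

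Mylip encodes the ubiquitin ligase, also called IDOL, that limits the uptake of lipoproteins. Mylip (chr13:45389742-45412019) was at 5.042, 3.941, 3.492 and 5.015 FPKM in the controls and at 9.455, 5.631 and 5.685 FPKM in the mutants. Mutants 2 and 3 lay close above the controls and mutant 1 stood well above both. The means were 4.37 ± 0.779 FPKM (SD, n = 4) and 6.92 ± 2.19 FPKM (SD, n = 3), and the log2 fold change was 0.58 (SE 0.194), or 0.35 without mutant 1.

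**Figure D3:**
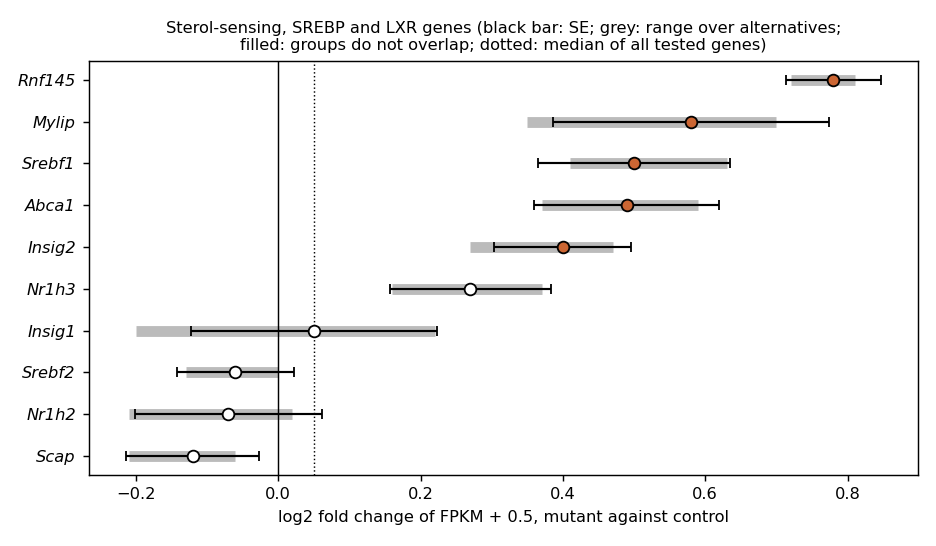
Log2 fold change of FPKM + 0.5 (mutant against control, x axis) for the 10 genes, with the SE as a black bar, the range over the alternatives in grey and a dotted line at the median of all tested genes. Rnf145 lies farthest to the right at 0.78 with the narrowest range, and Insig1 spans 0.

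Mutant 1 held the highest of the 3 mutant values for 8 of the 10 genes, the exceptions being Rnf145 (mutant 3) and Insig1 (mutant 2). Over all tested genes, mutant 1 was highest for 48.3%, mutant 2 for 21.4% and mutant 3 for 30.3%.

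Within the controls the order of level per transcript length was Scap (101 FPKM), Insig1 (87.1), Srebf2 (55.8), Insig2 (42.9), Nr1h2 (32.7), Srebf1 (27.7), Rnf145 (19.2), Abca1 (10.7), Mylip (4.37) and Nr1h3 (2.64 FPKM). The control ranges of neighbours in this order did not overlap, except those of Scap with Insig1 and of Nr1h2 with Srebf1. The order depends on the transcript length used. The table gives Scap 1109 bases and Insig2 783 bases, whereas the longest protein-coding GENCODE transcripts have 4227 and 2697 bases. With those lengths, an alternative chosen after the table had been read, 6 of the 10 genes changed rank. Insig1 and Srebf2 then led at 55.8 ± 4.55 and 54.9 ± 5.56 (SD, n = 4) on a scale of the same kind, a difference within their SDs, Scap followed at 26.5, and Insig2 stood at 12.5, below Rnf145 at 17.8. The comparison between groups is made within a gene and does not use the length.

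The targets of these factors were followed in lists that hold none of the 10 genes. Of 75 genes in 6 lists, 72 were tested and 2 were called, Scd1 and Thrsp, both higher in mutants. With the replicate block 9 were called (8.37% of all genes), with DESeq2 10 (10.8%) and with the quasi-likelihood test of edgeR 0 (371 of 15123 genes). The 2 calls are near the 2.62% of all genes.

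Both calls were among the targets of SREBP-1, the genes of fatty acid synthesis and desaturation. In this list 10 of 14 genes were higher and 4 lower in mutants, and the median log2 fold change was 0.25. All mutants lay above all controls for 8 (12.9% of all tested genes), and 9 had an unadjusted p under 0.05 (24.4% of all tested genes). Scd1, the desaturase that makes oleate, was at 205.6, 212.2, 193.3 and 184.2 FPKM in the controls and at 236.3, 340 and 313.2 FPKM in the mutants. All mutants lay above all controls with mutant 1 nearest to them, and the log2 fold change was 0.56 (SE 0.119, adjusted p = 0.048, limma-trend). Thrsp, a cofactor of lipogenesis, was at 18, 16.11, 19.6 and 18.81 FPKM in the controls and at 22.63, 26.48 and 25.84 FPKM in the mutants. Here too the groups did not overlap, with a log2 fold change of 0.45 (SE 0.0872, adjusted p = 0.0388, limma-trend). Leaving out any control, or mutant 3, ended both calls, and leaving out mutant 2 ended that of Scd1, with adjusted p values up to 0.141 for Scd1 and 0.111 for Thrsp. Among those not called, Mid1ip1 (a partner of Thrsp) had a log2 value of 0.39 and adjusted p of 0.0675, and Me1 (malic enzyme) had -0.36 and 0.126 in the limma-trend fit. Both of these were called with the block.

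The targets of SREBP-2, mainly enzymes of cholesterol synthesis, gave a median log2 fold change of -0.04. Of 22 tested, 7 were higher and 15 lower, and 0 were called by limma-trend. The block called 0 (8.37% of all genes) and DESeq2 called 1 (10.8% of all genes). An unadjusted p under 0.05 was found for 4, a smaller share than the 24.4% of all tested genes. The values ran from 0.28 for Lss (lanosterol synthase) to -0.20 for Ebp, an isomerase of the same pathway. In 21 of the 22 genes the highest mutant value was that of mutant 2, which was highest for 21.4% of all tested genes. Insig1, a target of the same factor, had its highest value in the same mouse. Mutant 2 also held the highest mutant value for all 8 OL markers. The part of OL content in the SREBP-2 target values was not tested. The median was 0.04 without mutant 1 and -0.12 without mutant 2.

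The LXR targets other than Abca1 and Mylip gave a median log2 fold change of 0.25. Of 10 tested, 9 were higher and 1 lower, and 0 were called by limma-trend. The block and DESeq2 each called 2 (8.37% and 10.8% of all genes). All mutants lay above all controls for 3 (12.9% of all tested genes), and 5 had an unadjusted p under 0.05 (24.4% of all tested genes). Smpdl3a, a phosphodiesterase of the sphingomyelinase family, had the highest value, with 22.27 to 29.01 FPKM in controls and 51.78, 34.17 and 34.72 FPKM in mutants (log2 fold change 0.56, adjusted p = 0.0815, limma-trend, called with the block and with DESeq2). Abcg1, a cholesterol exporter, had the lowest, with 15.05 to 17.47 FPKM in controls and 14.3, 17.69 and 16.64 FPKM in mutants (log2 difference -0.03).

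The proteases and ER ligases that process SREBPs, Insigs and HMG-CoA reductase gave a median of 0.14, with 9 of 11 higher and 0 called by limma-trend. An unadjusted p under 0.05 was found for 3 (24.4% of all tested genes). The block called 1 (8.37% of all genes) and DESeq2 called 0 (10.8% of all genes). March6, an ER ligase that acts on squalene epoxidase, had the highest log2 value of 0.38 and was the one called with the block, and Syvn1, another ER ligase, had the lowest of -0.11. The receptors and cofactors that pair with LXRs gave a median of 0.13 over 6 genes, with the highest value, 0.42, for Rxra, the partner receptor. Of these, 0 were called by limma-trend, the block or DESeq2, and 2 had an unadjusted p under 0.05 (24.4% of all tested genes).

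**Figure D4:**
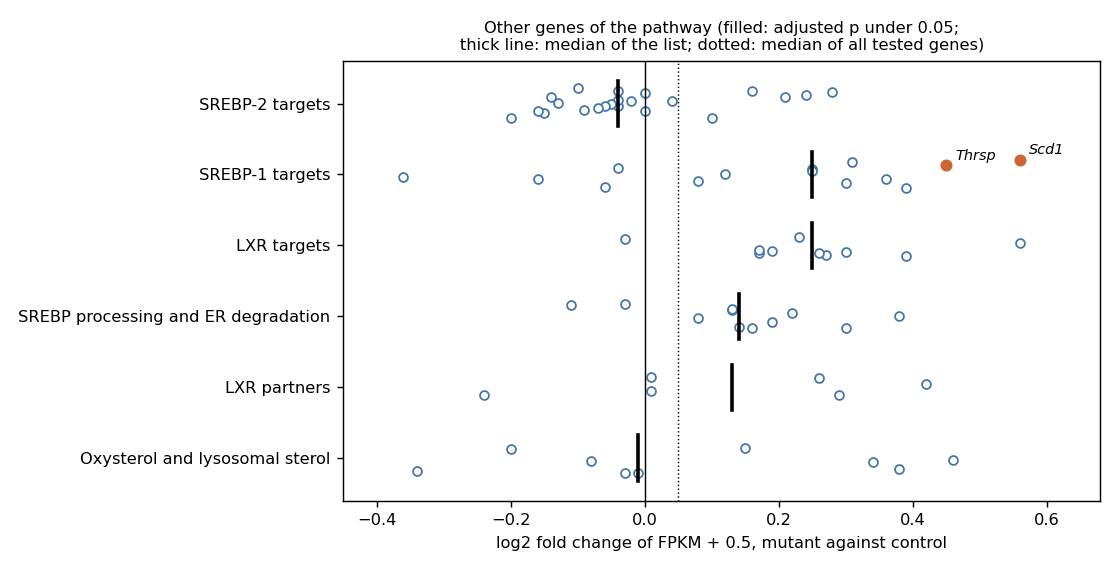
Log2 fold change of FPKM + 0.5 (mutant against control, x axis) for each of the 72 tested pathway genes in 6 lists, with a thick line at the median of a list and a dotted line at the median of all tested genes. Scd1 and Thrsp, the filled points, are the 2 genes called, the medians of the SREBP-1 and LXR target lists are 0.25, and that of the SREBP-2 target list is -0.04.

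Of 43 markers in 6 lists of cell types of the nerve, 6 were called in the same samples, beside 2.62% of all tested genes. The 8 OL markers were all lower in mutants, 1 was called (Mag, a myelin adhesion protein, log2 fold change -0.45, adjusted p = 0.0437, limma-trend, and 0.072 with the replicate block), and their summed level was 30887 to 32967 FPKM in controls and 22539 to 29560 FPKM in mutants. Of 6 OL progenitor markers 5 were lower and 2 were called (Cspg4 and Gpr17), with sums of 380.7 to 420.6 FPKM and 280.1 to 336.5 FPKM. The 8 astrocyte markers were all higher and 3 were called (Aldh1l1, Slc1a2 and Gja1), with sums of 2898 to 3319 FPKM and 3622 to 4490 FPKM. For these lists the summed levels of the groups did not overlap. Most of each progenitor sum was Gpr17 (211.6 to 275.7 FPKM in controls, 150.6 to 179.9 FPKM in mutants). The paper places Gpr17 with transcripts enriched in myelin-forming OLs, so this sum is not one of progenitors alone. Pdgfra, Lhfpl3 and Ptprz1 overlapped between the groups, and Cspg4, C1ql1 and Gpr17 did not. Each of the 6 calls was lost without control 1, 2 or 3 or without mutant 3, with adjusted p values over the alternatives of up to 0.0857 for Aldh1l1 and up to 0.155 for Mag (limma-trend and the count tools). None of the 6 was called without the filter or without the variance trend. Cspg4 was called in none of the fits that left out a sample. Mag was not called under quantile normalization or from normalized counts, and Slc1a2 was not called under quantile normalization, median-of-ratios scaling, normalized counts or edgeR.

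The 7 microglia, 7 endothelial and 7 meningeal fibroblast markers were all higher in mutants with 0 called by limma-trend. At an unadjusted p under 0.05 there were 3, 4 and 5 of them, the block called 1, 1 and 5, and DESeq2 called 0, 2 and 3. Over all genes the shares were 24.4%, 8.37% and 10.8%. Their sums were 232.7 to 278.3 FPKM in controls and 263.8 to 305.8 FPKM in mutants for microglia, and 103.8 to 125.9 FPKM and 133.7 to 148.9 FPKM for endothelium. The fibroblast sums were 6248 to 7187 FPKM and 8144 to 15961 FPKM, with mutant 1 highest for each of the 7 markers, and most of each sum was Ptgds, which OLs are also known to express. The endothelial and fibroblast sums did not overlap between the groups, and the microglia sums did. No defining marker of any list was at 0. Mutant 1, highest for 8 of the 10 sterol genes, thus also had the highest fibroblast sum and, at 22539 FPKM, the lowest OL sum. The part of cell composition in the values of the 10 genes was not tested.

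**Figure D5:**
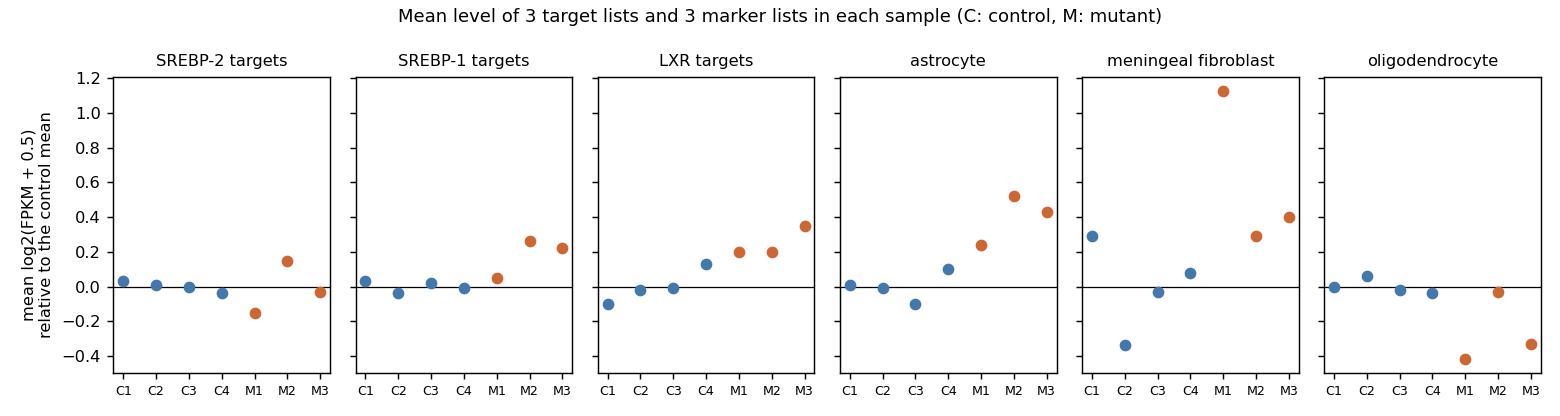
Mean log2(FPKM + 0.5) of 3 target lists and 3 marker lists in each of the 7 samples, relative to the control mean (y axis), with controls C1 to C4 and mutants M1 to M3 on the x axis. The SREBP-2 target list stands at -0.15, 0.15 and -0.03 in mutants 1 to 3, and the SREBP-1 target list at 0.05, 0.26 and 0.22.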

How the data were processed

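RNA-seq was made from P14 optic nerves of 4 control and 3 mutant mice, grouped and numbered by their labels. Per the submitters' notes and the methods, the authors prepared stranded polyadenylated RNA libraries, aligned single end reads to GRCm38 with STAR (2.5.1b) and quantified genes with RSEM (1.2.22). The deposited table lists 22880 genes, and its 14 columns of single samples were all used here. It gives a normalized count per gene, a signal made by the authors from the estimated counts and a size factor per sample, and an FPKM value, which the authors scaled for transcript length and library size. It also holds a GC content deposited as a fraction, and the authors' own fold changes and p-values, which were not used. Whether strand was used in counting is not given in the sources used here. The names of 27 genes stood in the table as spreadsheet dates and were restored by gene ID from GENCODE.

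The test was limma-trend (limma 3.58.1, R 4.3.3) on log2(FPKM + 0.5), with genotype as the only term, for the 13866 genes that reached 0.5 FPKM in 3 or more samples, with Benjamini-Hochberg adjustment and a threshold of 0.05. Fold changes are on this scale and are too small for genes with low FPKM. The plan had named edgeR for raw counts, and the table held none. Reads were recovered by dividing normalized counts by the step of 1 read in each sample and rounding. Of values from 0.5 to 10 reads, 73.5% to 78.7% were whole within 0.02 reads, the others being fractional RSEM estimates. The recovered reads gave depth and served edgeR (4.0.16), which called 371 genes, and DESeq2 (1.42.0), which called 1603. The scripts were tested on simulated data.

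Alternatives were other pseudocounts, no filter, other scalings, no variance trend, leaving out each sample, both count tools and the replicate number as a block. The labels do not say what a number stands for. Deviations of same-numbered samples from their group means correlated at 0.168 to 0.409 over 3 pairs, and those of different numbers at -0.353 to 0.205 over 9. These ranges overlap, and mutant 1 correlated more with control 4 (0.205) than with control 1 (0.168). The block takes the numbers to pair the samples, which these values do not establish, so its calls are those of an assumed pairing. Control 4, without a partner, adds nothing to the blocked estimate. Where nothing says more, the p-values measure the spread between these mice.

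The 10 genes and all gene lists were chosen with earlier results of these data known. The text names Fasn, the 10 genes, in each pathway list the called genes or else the highest and lowest, the 5 genes most like Rnf145, and the called markers. Mid1ip1, Me1, Ptgds, Cyp7b1 and Soat1 were named after their values were seen. Some genes that this rule would name are not reported here. Positions are those of the table on GRCm38, and the alternative transcript lengths are those of GENCODE M21. Promoter sequences are RefSeq's, on GRCm38.p6, matched by symbol for 10 of 10 genes and searched on both strands.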

Additional observations from a re-analysis of the deposited data

How the results depend on the processing

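The log2 fold change of each of the 10 sterol genes moved by less than the spread between replicates (1 SD) under all alternatives run. For single-sample omissions and the block, which drops control 4, this says little. Dropping 1 mouse from groups of 4 and 3 can hardly move a mean that far. The values ran from 0.72 to 0.81 for Rnf145, from 0.27 to 0.47 for Insig2 and from 0.35 to 0.70 for Mylip. Those of Insig1 and Nr1h2 lie near 0 and changed sign under some alternatives. The number of all genes called, 363, was 95 without the filter, 57 without the variance trend, 1161 with the replicate block, 1603 with DESeq2, and 6 to 907 when single samples were left out. The fewest came without control 3 or mutant 3 (6 each) and the most without mutant 2 (907). Of the 10 genes, 1 was called, and 5 with the replicate block, 5 with DESeq2, and 1 to 3 when single samples were left out, with Srebf1 added without control 4 and Abca1 and Insig2 without mutant 2. Of the pathway genes, 2 were called, and 0 without the filter, with median-of-ratios scaling, from normalized counts, without the variance trend and with edgeR, 1 with quantile normalization, 9 with the replicate block, 10 with DESeq2, and 0 to 4 when single samples were left out.

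The median of the SREBP-2 targets, -0.04, was -0.09 with median-of-ratios scaling, edgeR and DESeq2, -0.12 from normalized counts, -0.07 with the replicate block, and -0.12 to 0.04 when single samples were left out. The median of the SREBP-1 targets, 0.25, was 0.20 with median-of-ratios scaling, 0.18 from normalized counts, 0.21 with edgeR and with DESeq2, and 0.20 to 0.32 when single samples were left out. The median of the LXR targets was 0.14 after quantile normalization, beside 0.25. That of the SREBP processing list, 0.14, was 0.07 after quantile normalization and 0.07 from normalized counts. That of the oxysterol and lysosomal list, -0.01, was -0.06 with median-of-ratios scaling, edgeR and DESeq2, -0.09 from normalized counts, and -0.04 to 0.04 when single samples were left out. The causes of these differences were not tested. The median of all genes moved by at most 0.074 on the log2 scale under any scaling. Apart from the counts and the calls given beside the results, the block changed the direction of no list median.

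Nr1h3 rests on 142 to 209 reads per sample, the fewest of the 10 genes. Nearly 1 in 4 low values was not a whole number of reads, so the count tools ran on rounded estimates.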

Other observations

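The genes that make, modify or store oxysterols and that move cholesterol out of lysosomes form a further list. Of 9 tested, 4 were higher and 5 lower in mutants, with a median log2 fold change of -0.01 and 0 called by limma-trend. An unadjusted p under 0.05 was found for 5 (24.4% of all tested genes). The replicate block called 2 (8.37% of all genes) and DESeq2 called 3 (10.8% of all genes). Ch25h, which makes 25-hydroxycholesterol, was at 0.8376, 0.6037, 0.7499 and 0.8753 FPKM in the controls and at 1.45, 1.192 and 1.079 FPKM in the mutants. Every mutant lay above every control, as in 12.9% of all tested genes, at low levels in both groups (log2 fold change 0.46, SE 0.138, adjusted p = 0.0999, limma-trend).

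Cyp27a1, the mitochondrial sterol 27-hydroxylase, was at 37.38, 37.82, 39.24 and 42 FPKM in the controls and at 33.25, 32.75 and 26.85 FPKM in the mutants. All mutants lay below all controls, an arrangement whose share over all genes is not given here. The log2 fold change was -0.34 (SE 0.086, adjusted p = 0.0714, limma-trend), and DESeq2 called Cyp27a1 whereas the block did not. Cyp7b1, an oxysterol hydroxylase, was at 5.258 to 6.089 FPKM in the controls and at 7.012, 7.768 and 7.583 FPKM in the mutants, and Soat1, which esterifies cholesterol, was at 22.82 to 27.78 FPKM and at 31.89, 30.2 and 34.5 FPKM. Neither overlapped between the groups, with all mutants above all controls as in 12.9% of all tested genes. Their log2 fold changes were 0.38 and 0.34 with adjusted p values of 0.0562 and 0.0681 in the limma-trend fit. Both were called with the block and with DESeq2. The summed OL, OL progenitor, astrocyte, endothelial and meningeal fibroblast markers did not overlap between the groups either, and their part in these values was not tested.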
